A study of Mus musculus with 6 samples.

Results

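Epithelial targets of NF-κB, 10 in all, were followed through bulk RNA sequencing of mouse bladder tumor organoids, small cultures grown in 3 dimensions from tumor cells. They were taken as a list of 10 gene symbols out of 51912 gene IDs in the deposited table: the inhibitors Nfkbia and Tnfaip3, the chemokines Cxcl1, Cxcl2, Cxcl5, Cxcl15 and Ccl20, the cytokines Il1a and Csf1, and the antimicrobial protein gene Lcn2. Each was matched by symbol to 1 ID, and 9 of the 10 had a mean of at least 1 TPM over the 6 libraries and were tested. Il1a had a mean of 0.788 TPM and was described only. SRT1720, a synthetic compound developed to activate the deacetylase SIRT1, had been given to the organoids of 3 libraries (SRT1720 1 to 3), and vehicle to those of the other 3 (Vehicle 1 to 3). The strain was C57BL/6 in both groups. No label used here gives a dose, a duration, a number of animals or the origin of the tumors. Nor does any say that replicates were separate cultures or animals, so a p-value covers only the spread between these libraries, whatever its source. The comparison asks whether these transcripts differed between treated and control organoids.

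NF-κB is a family of dimeric transcription factors held in the cytoplasm by IκB proteins. Signals from TNF, interleukin-1 or microbial products activate the IκB kinase, IκB is degraded, and dimers such as RelA (p65) with p50 enter the nucleus and bind κB sites. In epithelium the targets include chemokines that attract neutrophils and other leukocytes, and also the inhibitors that end the response. RelA is a known substrate of SIRT1, whose deacetylation of RelA lowers its activity. None of the values below measures acetylation or the location of a protein: they are mRNA levels.

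Levels are given as TPM, the name on the deposited table, a quantity scaled by gene length and depth. Recovered depth was between 17922373 and 22336358 reads per library. Each library was nearest to 1 library of the other group over 9174 tested genes outside the lists used here: SRT1720 1 to Vehicle 2, SRT1720 2 to Vehicle 1, and SRT1720 3 to Vehicle 3. The root mean square difference in log2(TPM + 1) was 0.405 to 0.448 within these 3 pairs and 0.446 to 0.754 in the other 12 pairs of libraries. Krt5, a basal keratin, was at 16.4 TPM in SRT1720 1 and 9.61 TPM in Vehicle 2, whereas the remaining libraries lay between 425 and 1120 TPM. Genes on chromosome 3 had a median deviation from their group mean of −0.39 (log2) in SRT1720 3 and −0.41 in Vehicle 3, and between 0.13 and 0.26 in the other libraries. Of 19 epithelial markers 16 had a mean of at least 1 TPM, and the uroplakin genes Upk1a, Upk2 and Upk3a did not.

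No member differed between SRT1720 and Vehicle beyond the spread between libraries. The SRT1720 and Vehicle values overlapped in all 10 members, whereas 19.9% of the 9287 genes tested had groups that did not overlap. By limma with Benjamini-Hochberg adjustment over all genes, 0 of 9 tested members were called (adjusted p = 0.643 to 0.996), against 0.0% of all genes tested. At an unadjusted p under 0.05 there were 0 members, and 12.4% of all genes. Voom on recovered reads also called 0 members and 0 of all genes, with 0 members and 1122 genes at an unadjusted p under 0.05. Of the 9, 5 lay above a log2 fold change of 0 and 4 lay below it. The median was 0.04, and over all genes tested it was 0.035. Libraries of the same group differed widely in these genes. Their median residual SD within groups was 1.88 on the log2(TPM + 1) scale, against 0.249 over all genes tested.

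**Figure D1:**
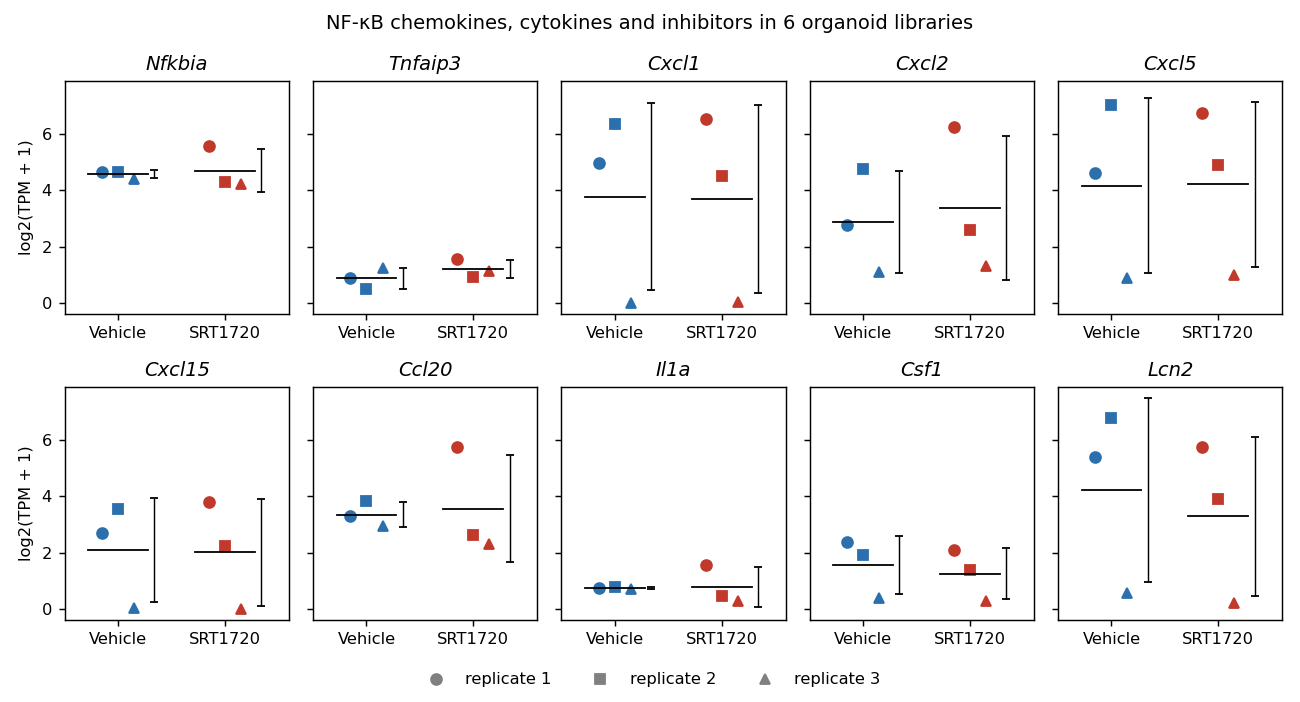
Level of each member as log2(TPM + 1) on the vertical axis in the 3 Vehicle libraries (blue) and the 3 SRT1720 libraries (red), with symbols for replicate numbers, a line at the mean of these log values and a bar of ± 1 SD beside it. In every panel but that of Tnfaip3 the lowest point of each group is replicate 3, and in all 10 panels the 2 groups overlap.

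The inhibitors were the steadiest of the tested members, by residual SD within groups. Nfkbia, which encodes IκBα and is itself switched on by NF-κB, lies on chromosome 12 from 55489410 to 55492647 on the reverse strand (ENSMUSG00000021025). It was at 46.5, 18.6 and 17.6 TPM in libraries 1, 2 and 3 of the SRT1720 group, and those of the Vehicle group were at 24.3, 23.9 and 20.2 TPM. SRT1720 1 stood above every other library, and the other 5 lay within a narrow range, with the remaining SRT1720 libraries below all Vehicle libraries. The log2 fold change was 0.13 (SE 0.37, 95% interval −0.76 to 1.01). It was −0.31 without SRT1720 1, and it did not pass limma's test in either case (adjusted p = 0.928 with all libraries and 0.567 without SRT1720 1).

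Tnfaip3 encodes A20, a ubiquitin-editing enzyme that shuts off signalling from the TNF receptor to the IκB kinase. It lies on chromosome 10 from 19000910 to 19015657 on the reverse strand. It was at 1.96, 0.893 and 1.20 TPM with SRT1720 and at 0.873, 0.418 and 1.35 TPM with vehicle. SRT1720 1 was again the highest library, but here Vehicle 2 was the lowest and the replicate 3 libraries came next after SRT1720 1. Tnfaip3 had the smallest adjusted p of the members (log2 fold change 0.33, SE 0.25, limma adjusted p = 0.643). Without SRT1720 1 and Vehicle 2 the log2 fold change of Tnfaip3 was −0.04.

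Both inhibitor genes and the neighbours Cxcl1 and Cxcl2 have κB sites close to their start in textbook accounts, so the sequence before their RefSeq start is shown. The RefSeq start can differ from the gene spans given here, which follow GENCODE. The Tnfaip3 run lies wholly inside its gene span, and the Cxcl1 and Cxcl2 runs overlap theirs at the end nearest the gene. Each run is the 160 bases before the RefSeq start (GRCm38.p6), 5′ to 3′ on the strand of the gene, and capitals mark matches to the κB consensus on either strand.
Nfkbia, chr12:55492648-55492807, reverse strand: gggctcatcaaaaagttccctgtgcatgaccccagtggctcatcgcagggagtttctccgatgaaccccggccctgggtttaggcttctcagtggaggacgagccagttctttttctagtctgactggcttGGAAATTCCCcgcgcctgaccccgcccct
Tnfaip3, chr10:19015411-19015570, reverse strand: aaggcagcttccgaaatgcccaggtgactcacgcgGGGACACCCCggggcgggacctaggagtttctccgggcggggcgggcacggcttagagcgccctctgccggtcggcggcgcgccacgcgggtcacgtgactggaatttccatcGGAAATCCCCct
Cxcl1, chr5:90891085-90891244, forward strand: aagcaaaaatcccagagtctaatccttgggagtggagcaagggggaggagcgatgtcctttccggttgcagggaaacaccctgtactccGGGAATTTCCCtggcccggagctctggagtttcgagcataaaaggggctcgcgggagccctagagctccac
Cxcl2, chr5:90903739-90903898, forward strand: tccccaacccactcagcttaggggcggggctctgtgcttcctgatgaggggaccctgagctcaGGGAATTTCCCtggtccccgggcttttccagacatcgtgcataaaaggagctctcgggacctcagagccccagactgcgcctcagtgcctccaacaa
Over the 250 bases before the start, 9 members had a sequence, Cxcl5 had none in the table used, and 6 of the 9 held a match to the 10-base consensus in any window. Tnfaip3 had a further window, at another start, with 0 matches, so there were 10 windows for the 9 members. Counted by window, 3.9% of all 32851 windows held a match. In Cxcl1 and Cxcl2 a forward and a reverse match overlap within one run of capitals, and the longest stretch that their 250-base windows share is the 14 bases gggaatttccctgg. The first 10 letters of that stretch, one form of the consensus, were searched exactly on both strands: the windows of Nfkbia, Cxcl1 and Cxcl2 held them, as did 0.0852% of all windows. The matches in Ccl20, GGAAAACCCC, and in Csf1, GGAAAGTCCC, begin 80 and 154 bases before the start. The members were listed as NF-κB genes, so these counts are a description of them and no independent finding. Of the genes with the exact letters, Cxcl1 and Cxcl2 had the same order of all 6 libraries and went from 0.0138 to 91.8 TPM and from 1.15 to 74.6 TPM. Nfkbia had another order and stayed within 17.6 to 46.5 TPM. The part of the sequence in these orders and levels was not tested.

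Among the chemokines, 4 lie together on chromosome 5, from Cxcl5 at 90759360 to the end of Cxcl2 at 90905938, a span of 146.6 kb on the forward strand. Their proteins bind the receptor CXCR2 on neutrophils, except that this is not settled for Cxcl15. They are related in sequence, and the authors' handling of reads that map to several genes is not stated, so the split between them is uncertain.

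Cxcl1 (KC), a neutrophil attractant, lies from 90891241 to 90893115. It was at 91.8, 21.8 and 0.0257 TPM with SRT1720 (libraries 1, 2 and 3), and with vehicle at 30.5, 80.3 and 0.0138 TPM. The 2 lowest values rest on 4 and 2 recovered reads, against 14008 and 10685 reads in SRT1720 1 and Vehicle 2. Cxcl1 was thus close to undetected in 1 library of each group and abundant in the other 4. The group means were nearly equal, at 37.9 ± 47.9 and 36.9 ± 40.5 TPM (SD, n = 3 each). Its residual SD within groups, 3.33 (log2), was the largest among all 9287 genes tested. The log2 fold change was −0.09 with a 95% interval of −5.08 to 4.91, so the fit could not tell a large change in either direction from none.

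Cxcl5 (LIX), a further neutrophil chemokine from 90759360 to 90761624, was at 106, 28.8 and 0.987 TPM with SRT1720 and at 23.3, 130 and 0.830 TPM with vehicle. Vehicle 2 and SRT1720 1 were on top and both replicate 3 libraries at the bottom, as in Cxcl1. The log2 fold change was 0.04 (SE 1.90, 95% interval −4.50 to 4.58). Its residual SD of 3.02 ranked 6 among all genes tested.

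Cxcl2 (MIP-2), from 90903871 to 90905938, was at 74.6, 5.05 and 1.48 TPM with SRT1720 and at 5.85, 25.9 and 1.15 TPM with vehicle. Here SRT1720 1 lay well above its like library Vehicle 2, and the other 4 libraries did not exceed 5.85 TPM. Cxcl2 had the largest log2 fold change above 0 among the members, 0.51 (SE 1.40, limma adjusted p = 0.924), and without SRT1720 1 it was −0.92.

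Cxcl15 (lungkine), best known from lung epithelium, from 90794534 to 90803067, was at 12.9, 3.76 and 0 TPM with SRT1720 and at 5.47, 10.9 and 0.0274 TPM with vehicle. The replicate 3 libraries held 0 and 3 recovered reads, against 451 to 1486 in the others. The transcript was therefore measured in the same 4 libraries as Cxcl1, and its log2 fold change was −0.09 (95% interval −2.91 to 2.74).

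Ccl20, the ligand of CCR6 on dendritic cells and T helper 17 cells, lies on chromosome 1 from 83116766 to 83119167. It was at 53.6, 5.23 and 3.95 TPM with SRT1720 and at 8.81, 13.2 and 6.71 TPM with vehicle. In both replicate 3 libraries it was well above Cxcl1 and Cxcl15, with 505 and 802 recovered reads. SRT1720 1 alone was high, and SRT1720 2 and 3 were the 2 lowest libraries of all. The sign of the difference therefore rested on 1 library: the log2 fold change was 0.22 (SE 0.88, limma adjusted p = 0.950) with all libraries and −0.88 without SRT1720 1 (limma adjusted p = 0.419, unadjusted 0.0268).

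Il1a, an alarmin stored in epithelial cells that starts NF-κB signalling through the interleukin-1 receptor, lies on chromosome 2 from 129299610 to 129309972 on the reverse strand. It was at 1.996, 0.395 and 0.230 TPM with SRT1720 and at 0.705, 0.742 and 0.659 TPM with vehicle. The Vehicle libraries were close together, and the SRT1720 libraries lay on both sides of them. The same shape, SRT1720 1 highest and SRT1720 2 and 3 lowest, was seen in Nfkbia, Ccl20 and Il1a. Il1a stayed below the filter on low values, with 25 to 213 recovered reads per library. Its difference in mean log2(TPM + 1) was 0.02 (exact two-sided permutation p = 1).

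Csf1, the growth factor of macrophages, lies on chromosome 3 from 107741048 to 107760469 on the reverse strand. It was at 3.29, 1.63 and 0.224 TPM with SRT1720 and at 4.17, 2.76 and 0.318 TPM with vehicle. The low libraries were again SRT1720 3 and Vehicle 3, the libraries in which genes on chromosome 3 had medians of −0.39 and −0.41; the part of this shift in the Csf1 values was not tested. The log2 fold change was −0.30 (SE 0.62, limma adjusted p = 0.898).

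Lcn2 encodes lipocalin-2, which binds bacterial siderophores and is a classic product of inflamed epithelium. It lies on chromosome 2 from 32384633 to 32388252 on the reverse strand. It was at 53.3, 14.2 and 0.157 TPM with SRT1720 and at 40.9, 108 and 0.473 TPM with vehicle. The replicate 3 libraries were lowest, with 45 and 127 recovered reads against at least 4159 in every other library. Lcn2 had the log2 fold change farthest from 0 among the members, −0.94 (SE 1.93, 95% interval −5.53 to 3.65, limma adjusted p = 0.897). Its residual SD, 3.05, ranked 5 among all genes tested.

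**Figure D2:**
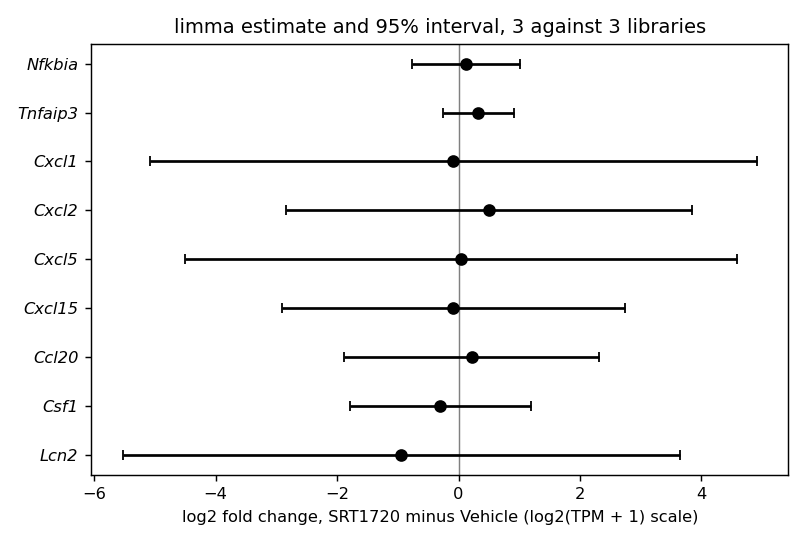
Log2 fold change of SRT1720 minus Vehicle (horizontal axis, log2(TPM + 1) scale) for the 9 tested members, as the limma estimate with its 95% interval from 3 against 3 libraries. Every interval spans 0, from the narrowest in Tnfaip3 to Cxcl1 at −5.08 to 4.91.

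Exact two-sided permutation tests of single members gave p = 0.4 to 1, and 3 libraries against 3 cannot go below 0.1. The intervals of the inhibitors were narrower than those of the other tested members. Tnfaip3 had a mean of 1.12 TPM, and log2(TPM + 1) compresses the spread of low genes. The part of level in these widths was not tested. The inhibitors Nfkbia and Tnfaip3 had residual SDs of 0.545 and 0.348, which 12% and 29.8% of all genes tested exceeded. The chemokines, Csf1 and Lcn2 had residual SDs of 0.974 to 3.33, and 1.08% of genes or fewer exceeded those of the 5 chemokines and Lcn2. In this fit, which takes no account of the like pairs of libraries, the intervals of the chemokines and Lcn2 leave room for differences of several fold in either direction.

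**Figure D3:**
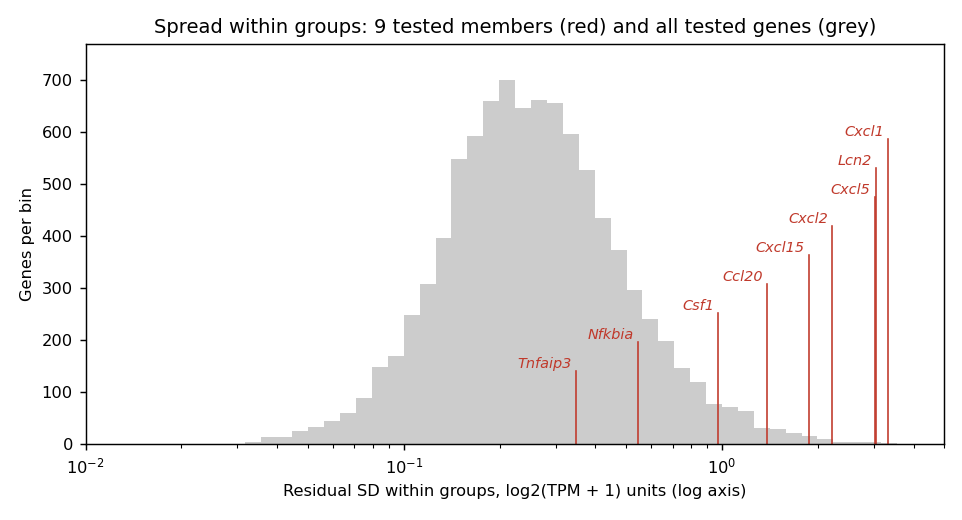
Number of genes (vertical axis) by residual SD within groups in log2(TPM + 1) units (horizontal log axis) for all 9287 genes tested, with red lines at the 9 tested members. Tnfaip3 and Nfkbia stand at 0.348 and 0.545, above the median of 0.249, and Cxcl1, Lcn2 and Cxcl5 stand above 3 at its right end.

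Like libraries often stood together at the top or bottom, but not in every member. In Tnfaip3 SRT1720 1 was the highest library, at 1.96 TPM, and its like library Vehicle 2 the lowest, at 0.418 TPM. In Ccl20 these libraries were far apart, at 53.6 and 13.2 TPM. SRT1720 1 and Vehicle 2 were the 2 highest libraries in 7 of 10 members, and SRT1720 1 was the highest in 7. SRT1720 3 and Vehicle 3 were the 2 lowest in 6 of 10 members, namely Cxcl1, Cxcl2, Cxcl5, Cxcl15, Csf1 and Lcn2. The shares of all genes tested with these orders were not counted, so these counts only describe the members. The pairs of like libraries were formed from the values of other genes and hold 1 library of each group, so differences within them are given without a test. SRT1720 1 minus Vehicle 2 was above 0 in 8 of 10 members, with a median of 0.51 (log2(TPM + 1)) and a range from −1.01 in Lcn2 to 1.95 in Ccl20. SRT1720 2 minus Vehicle 1 was below 0 in 8 of 10, with a median of −0.40 and a range of −1.47 in Lcn2 to 0.29 in Cxcl5. SRT1720 3 minus Vehicle 3 was below 0 in 7 of 10, with a median of −0.10. The sign of most members thus differed between pairs. Lcn2 was the only member with the SRT1720 library lower in all 3 pairs, by −1.01, −1.47 and −0.35, and none was higher in all 3. The share of all genes tested with the same sign in all 3 pairs was not counted, and the groups of Lcn2 overlapped.

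**Figure D4:**
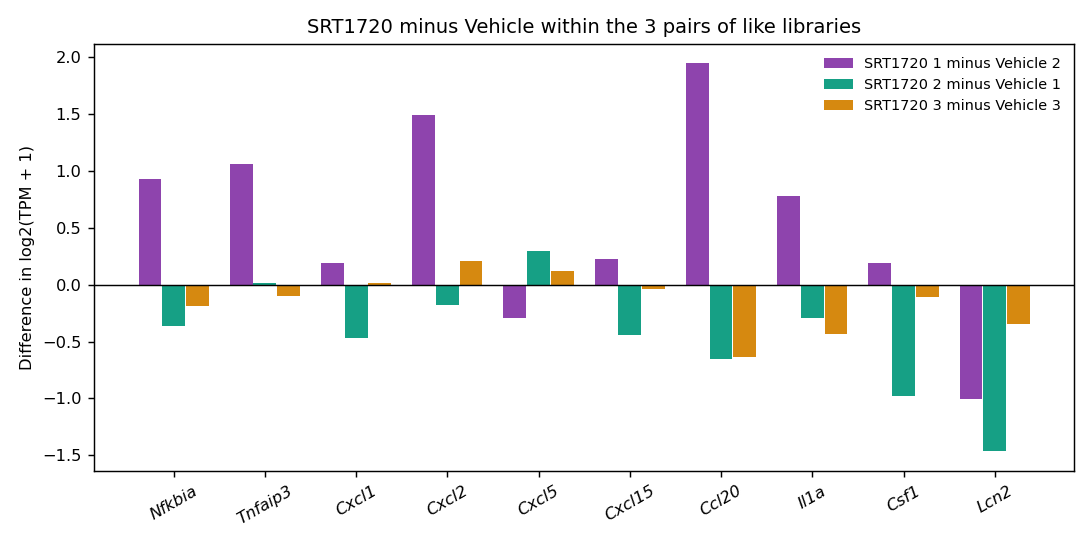
Difference in log2(TPM + 1), SRT1720 minus Vehicle, on the vertical axis for each of the 10 members (horizontal axis), with 1 bar for each of the 3 pairs of like libraries. The bars of Ccl20 run from 1.95 to −0.66, and those of Lcn2 all lie below 0.

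Other genes of the pathway were read from the same fit, as lists of 134 genes of which 82 were tested. By limma 0 of the 82 were called, 8 had an unadjusted p under 0.05, 55 had log2 fold changes above 0 and 27 below, and the median was 0.115. Over all genes tested, 5093 of 9287 lay above 0, and the counts above 0 in the lists below were not tested against that. The groups did not overlap in 8 genes that were higher with SRT1720 (9.76%, against 12.1% of all genes tested) and in 3 that were lower (3.66%, against 7.75%). Both shares were under the background, so the counts show nothing about the pathway as a whole.

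Of 16 tested NF-κB subunits, IκB family members and kinases, 0 were called, and 14 had log2 fold changes above 0. Rela, the p65 subunit, was at 16.9, 9.90 and 10.9 TPM with SRT1720 and at 10.9, 11.3 and 8.19 TPM with vehicle. Nfkb1, the precursor of p50, was at 3.85, 2.62 and 1.40 against 1.89, 1.997 and 0.828 TPM, and Nfkb2, the precursor of p52, at 18.5 ± 8.31 against 12.6 ± 3.05 TPM. These genes varied far less between libraries than the chemokines, with residual SDs of 0.315 for Rela and 0.457 for Nfkb1. Map3k7 (TAK1), the kinase that activates the IκB kinase, was at 3.31 ± 0.12 against 2.36 ± 0.13 TPM, and its partner Tab3 at 1.84 ± 0.40 against 1.26 ± 0.21 TPM. Ikbkg (NEMO), the scaffold of the IκB kinase, was at 1.06 ± 0.10 against 1.35 ± 0.12 TPM. These 3 genes had groups that did not overlap (limma adjusted p = 0.346, 0.464 and 0.588).

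Of 17 tested receptors and adaptors upstream of NF-κB, 0 were called, and 14 had log2 fold changes above 0. Myd88, the adaptor of interleukin-1 and Toll-like receptors, was at 2.08 ± 0.44 against 1.22 ± 0.32 TPM, and Traf6, the ubiquitin ligase downstream of it, at 2.36 ± 0.27 against 1.45 ± 0.39 TPM. Ripk1, the kinase of the TNF receptor complex, was at 1.99 ± 0.25 against 1.20 ± 0.22 TPM. Birc2 (cIAP1), a ubiquitin ligase of the same complex, was at 1.01 ± 0.11 against 1.496 ± 0.32 TPM. The groups did not overlap in these 4 genes, and their limma adjusted p ran from 0.335 to 0.454. The highest means of the list were those of Tnfrsf12a, the receptor of TWEAK, at 128 ± 88.3 against 117 ± 62.8 TPM, and Ltbr, the lymphotoxin-β receptor, at 12.6 ± 1.93 against 13.2 ± 3.07 TPM, with overlapping groups.

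Among 14 tested genes of the list of negative regulators 0 were called, 7 lay above 0 and 7 below. That list also holds Rnf31, Rbck1 and Sharpin, which build linear ubiquitin chains and are not inhibitors. Their log2 fold changes were −0.31, 0.14 and 0.05. Otulin, which removes linear ubiquitin chains from NF-κB signalling complexes, was at 6.59, 7.26 and 7.62 TPM with SRT1720 and at 4.08, 3.13 and 4.35 TPM with vehicle. Its groups were well apart, with a log2 fold change of 0.76 (SE 0.16), but it did not pass (limma adjusted p = 0.2496). Tax1bp1, an adaptor of A20, was at 5.88 ± 0.36 against 6.45 ± 0.35 TPM. Il1rn, the interleukin-1 receptor antagonist, was at 5.62, 1.11 and 0.899 TPM with SRT1720 and at 0.566, 2.20 and 0.726 TPM with vehicle, again highest in SRT1720 1 and Vehicle 2.

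Other NF-κB target cytokines had a median residual SD of 1.17 over the 10 tested, below that of each member chemokine and above the 0.249 of all genes tested, and 0 of the 10 were called. Csf3 (G-CSF), the growth factor of neutrophils, was at 157, 24.8 and 1.80 TPM with SRT1720 and at 31.7, 107 and 0.742 TPM with vehicle, the library order of Cxcl1. Ccl2, a monocyte chemokine, had another order, at 32.0, 10.5 and 13.6 against 16.6, 1.94 and 6.83 TPM. Cx3cl1, fractalkine, was at 3.50 ± 0.60 against 1.89 ± 0.87 TPM, with groups that did not overlap (limma adjusted p = 0.366). Tnf, an inducer and a target of NF-κB, was at 8.55, 1.23 and 1.64 against 0.802, 2.58 and 1.13 TPM, so SRT1720 1 alone was high. Il1b and Il6, products mainly of leukocytes and stroma, did not exceed 0.0902 and 0.565 TPM in any library.

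Of 23 other tested NF-κB target genes 0 were called. Gadd45b, a stress sensor, was at 8.33, 4.24 and 4.85 TPM with SRT1720 and at 8.84, 20.5 and 12.6 TPM with vehicle, groups that did not overlap (log2 fold change −1.11, SE 0.35, limma adjusted p = 0.335). Ier3 was at 102 ± 29.0 against 155 ± 62.7 TPM, and Ptgs2 (cyclooxygenase-2) at 21.8 ± 23.6 against 29.6 ± 11.1 TPM. Saa3, an acute phase protein gene named after its values were seen, was at 38.7, 4.56 and 0.0455 against 9.06, 36.9 and 0.0182 TPM, the library order of Cxcl1.

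Receptors that leukocytes carry for the member ligands were at or near 0. Cxcr1 was at 0 in all 6 libraries, Cxcr2 did not exceed 0.0562 TPM, Ccr6 0.00875 TPM and Csf1r 0.0666 TPM. Il1r1, the receptor of Il1a, was at 1.95, 1.14 and 0.254 TPM with SRT1720 and at 1.24, 1.08 and 0.230 TPM with vehicle, lowest in the replicate 3 libraries like Cxcl1. Its mean of 0.981 TPM was just below the filter. Its co-receptor Il1rap and Slc22a17, a receptor of lipocalin-2, both named after their values were seen, were highest in the replicate 3 libraries. Il1rap was at 0.401, 0.329 and 0.715 TPM with SRT1720 and at 0.315, 0.283 and 0.987 TPM with vehicle. Slc22a17 was at 0.145, 0.302 and 1.80 TPM with SRT1720 and at 0.362, 0.370 and 2.34 TPM with vehicle.

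Enzymes that act on the acetylation of RelA were also read. Sirt1 was at 1.29, 1.06 and 0.792 TPM with SRT1720 and at 0.728, 0.971 and 0.474 TPM with vehicle, below the filter and with overlapping groups. Sirt2, which also deacetylates RelA, was at 1.88 ± 0.22 against 2.13 ± 0.34 TPM, and Ep300, the acetyltransferase p300, at 2.37 ± 0.33 against 2.26 ± 0.40 TPM. Hdac3, a deacetylase of RelA in the nucleus, was at 5.95 ± 0.22 against 4.36 ± 0.22 TPM with groups that did not overlap (limma adjusted p = 0.355). Hdac1 was at 7.59 ± 1.53 against 5.11 ± 1.67 TPM, and Hdac2 at 11.4 ± 1.46 against 10.1 ± 1.58 TPM. Of 9 tested genes of this list 0 were called.

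Since leukocytes also make several member transcripts, their markers are given beside the result. Of 23 leukocyte markers 4 had a mean of at least 1 TPM, and Cd3e, Cd3d, Ms4a1 and Nkg7 were at 0 in all 6 libraries. Their summed level was 27.97, 25.03 and 2.23 TPM with SRT1720 (libraries 1, 2 and 3), and with vehicle 31.3, 16.7 and 4.45 TPM. It was lowest in the replicate 3 libraries, as the 4 chemokines on chromosome 5 were. It was highest in Vehicle 1, where none of these chemokines was highest. In SRT1720 1 and Vehicle 2 it was mostly Cd14, at 26.5 and 14.5 TPM. Lyz2, a lysozyme gene of macrophages and neutrophils, was at 10.5 TPM in SRT1720 2 and 14.3 TPM in Vehicle 1 and at 0 in the other 4 libraries. Ptprc, the pan-leukocyte marker, did not exceed 0.0129 TPM in any library. The summed level of the epithelial markers was 698, 1389 and 2290 TPM with SRT1720 and 1005, 512 and 1503 TPM with vehicle (libraries 1, 2 and 3). It was thus lowest in Vehicle 2 and SRT1720 1. Of 13 fibroblast markers 3 had a mean of at least 1 TPM (summed level 6.95 to 21.2 TPM with SRT1720 and 6.61 to 26.6 TPM with vehicle), as did 0 of 9 endothelial and 0 of 7 smooth muscle markers. The part of these markers, and of the basal keratin Krt5, in the member levels was not tested. In bulk samples fewer cells that make a transcript and less of it per cell cannot be told apart.

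For each tested member the gene outside the list with the nearest pattern was found, as the smallest root mean square difference over the 6 libraries after each gene was centred on its mean and divided by its SD. For Cxcl1 this was Ctsz, a lysosomal cathepsin gene on chromosome 2, at 40.4, 14.3 and 0.176 TPM with SRT1720 and at 18.5, 45.0 and 0.310 TPM with vehicle (difference 0.042 SD). For Cxcl2 it was Plscr1 (0.085 SD), for Ccl20 Fgf13 (0.156 SD), for Csf1 Fam3c (0.092 SD) and for Cxcl15 the processed pseudogene Gm7664 (0.037 SD). For Cxcl5 and Lcn2 they were Dbt (0.08 SD) and Pgrmc2 (0.079 SD), both on chromosome 3. The nearest gene to Nfkbia was Junb, a component of AP-1, at 77.7, 36.6 and 37.0 against 42.9, 40.5 and 38.5 TPM (0.168 SD), and the nearest to Tnfaip3 was Mfn2 (0.158 SD). With 6 libraries and 9287 genes, some genes match any pattern closely, so these are descriptions only.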

How the data were processed

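RNA sequencing of 6 libraries was read from 1 deposited table of TPM values, made by the authors per the file's name. The submitters' processing notes list the aligner STAR 2.6.0 and the genome GRCm38, with no counting program, gene lengths or annotation given in the labels. As deposited, the TPM columns sum to 161231 to 171577 and not to 1000000, and each is scaled by library depth, so values were compared between libraries as deposited. Gene lengths behind them often equalled summed distinct exons, so a level set beside that of another gene is approximate. Symbols and positions came from GENCODE M21 (GRCm38), which matched 51633 of 51912 IDs, and promoter sequence from RefSeq (GRCm38.p6). Whole reads were recovered from the value of 1 read on a 1 kb gene (0.017 to 0.0212 TPM) within 0.02 reads, for all but 2 IDs above 0; where no annotated length gave whole reads the smallest length that did was kept, so these counts can be too low.

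Groups and replicate numbers came from the titles. Between libraries of a group the median chi-square over genes was 12.02 to 25.06, so each counted as 1 replicate. limma 3.58.1 in R 4.3.3 (mean trend) was fitted to log2(TPM + 1) for the 9287 genes whose mean reached 1 TPM, and p-values were adjusted over all of them by Benjamini-Hochberg (threshold 0.05). Fold changes on that scale understate the change of low genes. The fit was run on simulated data as a check of the code only, since the simulated libraries were independent and held no like pairs. Single genes had exact permutation tests. Named were all members, fixed genes of the pathway, and in each pathway list the genes whose groups did not overlap and the 2 with the highest means. The members and lists were chosen with earlier results of these data known. Tables and figures used Python 3.11.15, pandas 2.3.3 and matplotlib 3.10.9. Alternatives covered the pseudocount, the filter, scaling, library weights, a replicate block, voom on recovered reads and left-out libraries.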

Additional observations from a re-analysis of the deposited data

How the results depend on the processing

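In 19 other settings no member, no pathway gene and no gene overall passed limma's adjusted threshold, while the number of genes at an unadjusted p under 0.05 ran from 388 without SRT1720 2 and Vehicle 1 to 2056 with library weights, against 1153. The adjusted p of members ran from 0.419 to 1, and Ccl20, without SRT1720 1 with or without Vehicle 2, was the only member with an unadjusted p under 0.05 in any setting. The median log2 fold change of the members, 0.04, ran from −0.92 without SRT1720 1 to 0.85 without SRT1720 3. The spread between the medians of single libraries was 1.86 (log2), a measure of levels and not of fold changes. The sign of most members depended on the setting, and 31 of 170 values of members were reversed against the main fit. Leaving out 1 library at a time, the log2 fold change of Cxcl1 ran from −1.97 to 1.74, of Cxcl2 from −0.92 to 1.54, of Cxcl5 from −1.61 to 1.65, of Cxcl15 from −1.12 to 0.92, of Ccl20 from −0.88 to 0.85, of Csf1 from −0.88 to 0.19, of Lcn2 from −2.78 to 0.60 and of Nfkbia from −0.31 to 0.36. Tnfaip3 alone among the tested members kept its sign in these fits, at 0.14 to 0.50. With library weights Ccl20 was at −0.46, Cxcl1 at 0.13, Cxcl2 at −0.022 and Nfkbia at −0.20. Without SRT1720 1 and Vehicle 2, Ccl20 was at −0.65, Nfkbia at −0.28 and Tnfaip3 at −0.041. Without SRT1720 2 and Vehicle 1, which was chosen after seeing the data, Csf1 was at 0.041, Cxcl1 at 0.104, Cxcl15 at 0.094 and Cxcl5 at −0.087. The other left-out pairs were planned, but they too rest on resemblance seen in these data, since no label gives pairs. Cxcl1 was at 0.145 with voom on recovered reads, and Cxcl5 was at −0.007 after scaling by median of ratios and at −0.013 after quantile normalization. The cause of these turns was not tested. With the replicate block 0 genes were called and 1133 had an unadjusted p under 0.05. The deviations of same-numbered libraries correlated at −0.20, −0.26 and 0.79, and only the replicate 3 libraries correlated best with their own number, so the numbers were not taken to pair the samples. Depth limited the lowest values, 0 to 4 reads for Cxcl1 and Cxcl15 in the replicate 3 libraries.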
